A study of Mus musculus with 4 samples.

Results

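The glucocorticoid receptor gene Nr3c1 and 7 genes that glucocorticoids are well known to induce, Fkbp5, Tsc22d3, Per1, Klf9, Zbtb16, Sgk1 and Ddit4, were followed in sorted mouse bone marrow cells with and without Zfp521. The 8 genes were taken by symbol from a table of 24421 genes, and all 8 were listed and passed the filter on low counts. The set was chosen by textbook knowledge, with earlier results of these data known, and by the Fkbp5 level. That level had been seen to be higher in the knockout in this same comparison. The Fkbp5 values are therefore given as a description without a test, and the question was whether the other genes of a steroid response moved with it. Gene expression was measured by RNA sequencing of LSK cells, marrow cells sorted for absence of lineage markers and presence of Kit and Sca-1, which include stem cells and multipotent progenitors. There were 2 libraries from Zfp521-/- mice (KO) and 2 from control littermates labelled wild type (WT), each from a pool of cells; age, strain, the design of the deleted allele and the number of animals per pool are not stated in the labels. The labels do not say which animals went into which library. The WT libraries differed in sex pattern, so their spread is not technical alone, while that between the KO libraries may be.

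Glucocorticoids, the adrenal steroids of stress and of the daily rhythm, bind a receptor that waits in the cytoplasm in a complex of Hsp90 and co-chaperones. The bound receptor enters the nucleus and acts on DNA, where it induces genes that curb inflammation, growth signalling and its own activity, and holds down cytokine genes. In bone marrow the hormone is known for killing or restraining lymphoid precursors and for effects on progenitor expansion.

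The libraries held between 17787425 and 29863594 counts. In Zfp521 itself the WT libraries held 1561 and 1429 counts and the KO libraries 308 and 215, so they followed their labels. Of 14140 genes tested, 6.78% passed the threshold of an adjusted p of 0.05 (edgeR quasi-likelihood test, Benjamini-Hochberg over all genes tested), 3.77% higher and 3.01% lower in KO. The WT libraries differed in sex pattern, with 5606 counts over 4 Y-linked genes in WT replicate 2 against 9 to 14 in the other libraries. When WT replicate 1 is left out, a WT library with Y-linked reads is thus compared with KO libraries nearly without them. Sex pattern and genotype cannot be told apart in that fit. With all 4 libraries sex pattern and genotype are partly mixed, since WT replicate 2 alone held many Y-linked reads. Only the fit without WT replicate 2 compares libraries alike in sex pattern, and it has 1 WT library. Kit, Flt3 and Cd34 lay between 282 and 708 CPM and Ly6a, which encodes Sca-1, at 36.9 to 67.0 CPM (counts scaled to library size). Of 5 LSK marker genes tested, which were Kit, Flt3, Cd34, Ly6a and Slamf1, 1 was lower in KO (log2 fold change -0.61) and 0 were higher.

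The sequence just upstream of a transcription start is shown for 3 of the genes. Fkbp5 and Per1 each have a window with the same motif, and the Sgk1 window shown alone among those matched holds the receptor's palindrome. RefSeq windows (GRCm38.p6) were matched for 6 of the 8 genes, with 14 windows in all since several genes have more than 1 start; Zbtb16 and Nr3c1 had no entry. Each printed run is the 250 bases before a start, 5′ to 3′ on the gene's strand, and capitals mark matches on either strand to GNACANNNTGTNC, a relaxed form of the palindrome that the receptor binds, to TGTTCT, the short unit of that palindrome, or to CACGTG, the E-box of clock proteins.
Fkbp5: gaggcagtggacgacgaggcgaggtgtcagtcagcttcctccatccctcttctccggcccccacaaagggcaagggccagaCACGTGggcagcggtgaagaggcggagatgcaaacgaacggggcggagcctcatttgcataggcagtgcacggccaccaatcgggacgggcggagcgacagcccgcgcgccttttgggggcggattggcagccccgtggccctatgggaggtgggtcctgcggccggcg
Per1: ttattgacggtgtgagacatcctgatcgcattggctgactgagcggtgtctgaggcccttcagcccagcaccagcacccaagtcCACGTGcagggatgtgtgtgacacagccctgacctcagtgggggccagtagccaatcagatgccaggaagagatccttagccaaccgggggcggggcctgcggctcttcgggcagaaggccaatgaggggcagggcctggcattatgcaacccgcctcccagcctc
Sgk1: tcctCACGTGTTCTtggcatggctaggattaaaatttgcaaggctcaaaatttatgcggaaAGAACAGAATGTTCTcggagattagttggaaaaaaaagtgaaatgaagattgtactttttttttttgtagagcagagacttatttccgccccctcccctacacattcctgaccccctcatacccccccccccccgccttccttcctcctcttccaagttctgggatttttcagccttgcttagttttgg
The Fkbp5 window (chr17:28486150-28486399, minus strand) and the Per1 window shown (chr11:69098699-69098948, plus strand), from 1 of its 2 starts, each hold an E-box and neither receptor motif. The other Per1 window holds none of these motifs. The Sgk1 window (chr10:21993640-21993889, plus strand), from 1 of its 6 starts, holds the palindrome, with the relaxed match beginning at position -188 from the start and overlapped by TGTTCT and its reverse complement. An E-box further upstream in the same window overlaps another TGTTCT. Among all 32851 windows of this length, 0.387% held GNACANNNTGTNC, 16.1% TGTTCT and 6.02% CACGTG, against 1, 4 and 3 of the 14 windows here. The cAMP response element TGACGTCA, in 1.55% of all windows, was in none of the 14. A match describes letters and not binding, and the windows do not cover introns or distant elements.

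Fkbp5 encodes FKBP51, a co-chaperone that sits on the receptor's Hsp90 complex, lowers its affinity for hormone and is itself induced by the receptor. It lies on chromosome 17 from 28399094 to 28517527 on the minus strand (mm10, GENCODE ENSMUSG00000024222.17, protein coding). Its level was 72.3 and 63.8 CPM in the WT libraries and 118 and 162 CPM in the KO libraries. Both KO libraries lay above both WT libraries, with means of 68.1 ± 6.04 and 140.0 ± 30.9 CPM (SD, n = 2 each) and a 2.06-fold higher KO mean. The log2 fold change was 1.04 (SE 0.19), between 0.79 and 1.24 when each library was left out, and 87.6% of tested genes had a lower value. In bulk RNA, fewer cells of a type and less RNA per cell cannot be told apart, here and below.

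**Figure D1:**
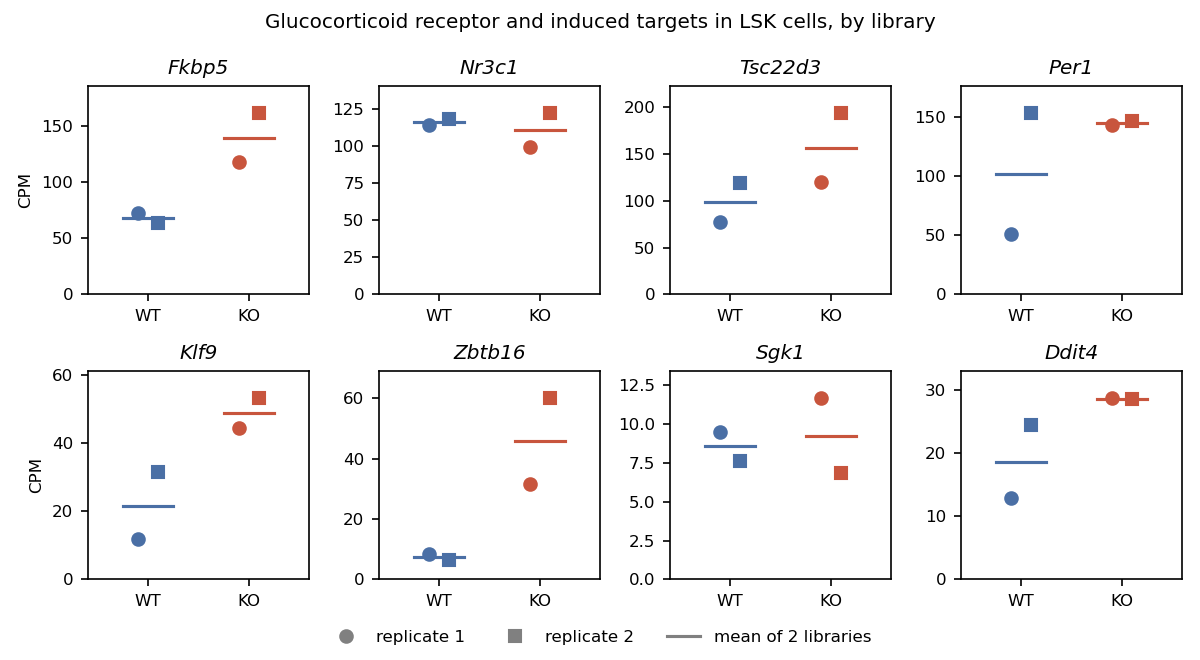
Level of each of the 8 genes in CPM (y axis, from 0) in WT and KO LSK cells; circles are replicate 1, squares replicate 2 and lines the mean of 2 libraries. Fkbp5 and Zbtb16 have close WT libraries and higher KO libraries, while Per1, Klf9 and Ddit4 are set apart in WT replicate 1.

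The receptor gene itself was at a similar level in the 4 libraries. Nr3c1 (chromosome 18, 39410545 to 39519421, minus strand) was at 114 and 118 CPM in WT and 99.2 and 122 CPM in KO. The groups overlapped, with a log2 fold change of -0.07 (SE 0.17, adjusted p = 0.842, edgeR quasi-likelihood test). Its sign turned with upper quartile factors (0.014) and when KO replicate 1 was left out (0.067). Of 8 genes for related steroid receptors, enzymes that make or remove active hormone and steroid export pumps, none passed. Over all genes tested 6.78% passed. The smallest p was that of Hsd11b2, which inactivates the hormone, at 0.144 and 0.322 CPM in WT and 1.54 and 0.610 CPM in KO (2.19, SE 1.06, adjusted p = 0.228, edgeR). The mineralocorticoid receptor gene Nr3c2, whose protein binds the same hormone, was low, at 0.395 and 2.21 CPM in WT and 3.12 and 2.08 CPM in KO. H6pd, whose enzyme supplies the cofactor for hormone reactivation, lay between 85.8 and 87.1 CPM in every library. Hsd11b1, the reactivating enzyme, lay between 0.201 and 1.47 CPM.

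Most of the chaperones that hold the receptor were lower in KO. Of 12 genes in this list, 7 were lower in KO, against 3.01% of all genes tested, and none was higher. The median log2 fold change was -0.71, against 0.02 over all genes tested. Fkbp4, which encodes FKBP52, the relative that competes with FKBP51 on Hsp90 and raises hormone binding, was at 372 and 253 CPM in WT and 200 and 116 CPM in KO. It fell from 312 ± 84.1 to 158 ± 59.2 CPM (SD, n = 2 each; log2 fold change -0.98, SE 0.25, adjusted p = 0.0377, edgeR). Ptges3, the p23 co-chaperone that closes the Hsp90 complex on the receptor, fell from 320 ± 56.9 to 167 ± 18.5 CPM (-0.93), and Hsp90aa1 from 1126 ± 309.7 to 620 ± 58.6 CPM (-0.86). The cyclophilin Ppid (-0.75), the scaffold Stip1 (-0.67), the Hsp70 partner St13 (-0.79) and the Hsp40 gene Dnaja1 (-0.80) also fell; Dnaja1 was named after its value was seen. These calls leaned on WT replicate 1, the library with the highest value for 11 of the 12 genes: without it none of the 12 passed, and the median was -0.46.

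**Figure D2:**
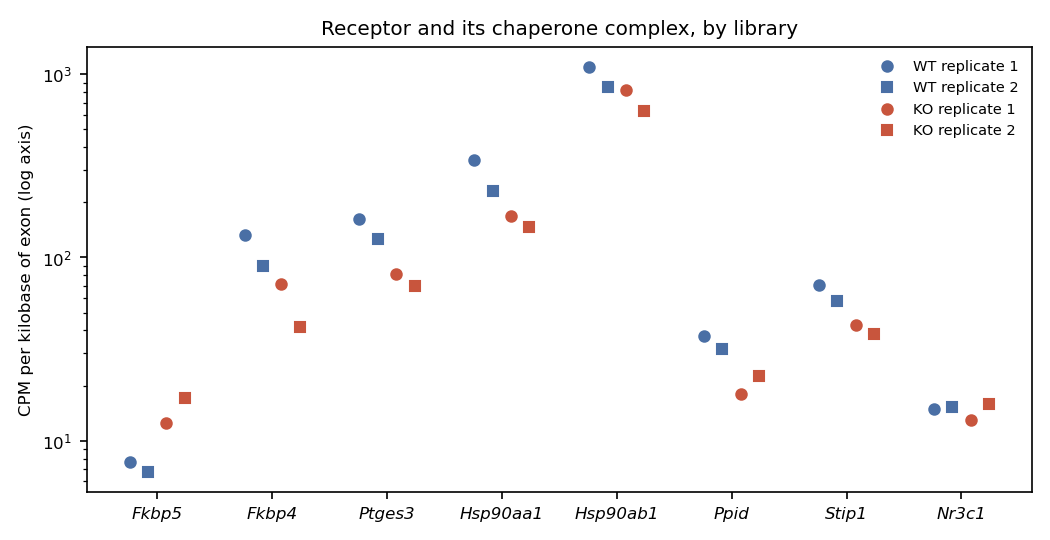
CPM per kilobase of merged exon (log axis) for Fkbp5, 6 other members of the receptor's chaperone complex and Nr3c1, with WT in blue, KO in red, circles for replicate 1 and squares for replicate 2. Fkbp5 is higher in both KO libraries, while the other chaperones shown are lower in both and Nr3c1 overlaps between groups.

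The other FK506 binding protein genes, which encode prolyl isomerases, were read beside Fkbp5. Of 15 tested relatives none was higher and 2 were lower, Fkbp4 and Fkbp1a, where 3.01% of all genes were lower, with a median of -0.17; neither passed without WT replicate 1, and 4 relatives did without KO replicate 1. Fkbp1a, the target of the drug FK506, fell from 331 ± 19.6 to 197 ± 36.1 CPM (-0.75, SE 0.16, adjusted p = 0.0214, edgeR), but did not pass when either WT library was dropped. Per length of exon, Fkbp5 was at 7.19 CPM per kilobase in WT and 14.8 in KO, and Fkbp4 at 112 and 56.5. The mean level of Fkbp4 was thus the higher of the pair in both groups, with no overlap between the genes in any library.

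Among the other 7 genes, Zbtb16 was higher in KO by the test, none was lower and 6 did not pass. The shares over all genes tested were 3.77% higher and 3.01% lower. Zbtb16 encodes PLZF, a zinc finger repressor that glucocorticoids induce in many tissues and that also acts in blood stem cells and in innate lymphoid and natural killer T cells. It lies on chromosome 9 from 48654297 to 48836222 on the minus strand. The WT libraries held 234 and 156 reads of it and the KO libraries 695 and 1180, which is 8.41 and 6.28 CPM against 31.4 and 60.0 CPM. It rose 6.22-fold, from 7.34 ± 1.5 to 45.7 ± 20.2 CPM (SD, n = 2 each; log2 fold change 2.63, SE 0.34, adjusted p = 0.00139, edgeR). The groups were far apart, although the KO libraries differed from each other by 0.92 on the log2 scale, and the value passed with each library left out (2.09 to 3.02).

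Zbtb16 is also a gene of innate lymphocytes, so their markers are given beside it. Of 12 T, NK and innate lymphoid markers, Cd3d, Cd3e, Cd3g and Ncr1 were under 1 CPM in every library, and the summed level of the list was 102 to 105 CPM in WT and 102 to 113 CPM in KO. Of the 9 tested, Id2, a transcription regulator shared with dendritic cells, was higher (2.14) and none lower. Over all genes tested 3.77% were higher. Mast cell and basophil markers, 7 of 10 higher, summed to 19.2 to 23.7 CPM in WT and 131 to 228 CPM in KO. Dendritic cell markers, 7 of 11 higher, summed to 159 to 167 CPM in WT and 885 to 1074 CPM in KO. Fcer1a stayed under 1 CPM in every library, while no dendritic cell marker did. Markers of long-term stem cells, 8 tested with none called, summed to 1232 to 1286 CPM in WT and 1214 to 1479 CPM in KO. The part of other cell types in the levels of Fkbp5 and Zbtb16 was not tested.

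Klf9, a Krüppel-like repressor that is a direct target of the receptor, had its KO libraries above both WT libraries but did not pass. It was at 11.7 and 31.4 CPM in WT and 44.2 and 53.1 CPM in KO. The log2 fold change was 1.18 (SE 0.37, adjusted p = 0.0758, edgeR), 0.63 with WT replicate 1 left out and 2.03 with WT replicate 2 left out, where it passed (adjusted p = 0.0112), as it also did without KO replicate 1 (1.29) and in DESeq2 (adjusted p = 0.0151). WT replicate 1 was thus the low library. Its close relative Klf13 rose from 82.7 ± 8.05 to 156 ± 9.01 CPM (0.91, SE 0.16, adjusted p = 0.00927, edgeR). It was the 1 gene called among 10 tested relatives of the members, against 6.78% called and 3.77% higher of all genes tested. Klf13 missed the threshold with either WT library left out, in fits that each have 1 WT library.

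Per1, a clock repressor that glucocorticoids induce within the hour, differed mainly between the WT libraries. It was at 50.6 CPM in WT replicate 1 and 153 CPM in WT replicate 2, and at 143 and 147 CPM in KO. The groups overlapped, with a log2 fold change of 0.51 (SE 0.36, adjusted p = 0.405, edgeR). It was -0.083 without WT replicate 1 and 1.5 with WT replicate 2 left out (adjusted p = 0.0113). The log2 difference of WT replicate 2 over WT replicate 1 was 1.59, and 99.1% of tested genes had a lower signed value. The other period genes did not split in this way, with Per2 at 35.6 and 28.0 CPM in WT and 26.6 and 29.5 CPM in KO, and Per3 at 40.9 and 46.3 CPM in WT and 33.9 and 42.5 CPM in KO. Of 16 other clock genes, 1 was higher and none lower, against 3.77% higher and 3.01% lower of all genes tested, and the median was -0.13. The higher gene was Rora, a nuclear receptor that drives the clock gene Arntl (27.1 ± 1.56 to 68.5 ± 11.3 CPM, 1.34, adjusted p = 0.00450, edgeR). Its log2 fold change stayed positive with each library left out.

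**Figure D3:**
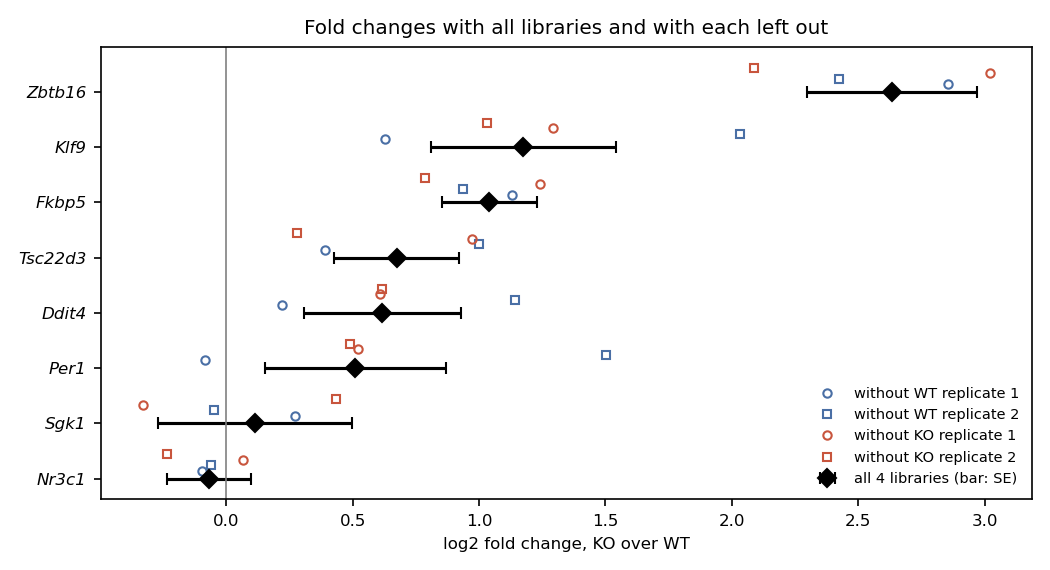
Log2 fold change, KO over WT, of the 8 genes with all 4 libraries (black diamond, bar: SE) and with each library left out (open symbols). Zbtb16, Klf9, Fkbp5, Tsc22d3 and Ddit4 stay above 0 in each case, Per1, Sgk1 and Nr3c1 change sign, and the widest range is that of Per1.

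None of the 3 effector genes passed. Tsc22d3 encodes GILZ, a leucine zipper protein that carries much of the anti-inflammatory action of glucocorticoids and is among the most used readouts of the receptor in blood cells. It was at 77.3 and 119.0 CPM in WT and 119.6 and 193 CPM in KO, so KO replicate 1 lay at the level of WT replicate 2. The log2 fold change was 0.67 (SE 0.25, adjusted p = 0.118, edgeR), from 0.28 without KO replicate 2 to 1.0 without WT replicate 2, and it passed without KO replicate 1 (0.97, adjusted p = 0.00514). The gene is on the X chromosome (140539528 to 140600659, minus strand), and WT replicate 2, the library with Y-linked reads, was the higher of the WT pair. Ddit4, which encodes REDD1, an inhibitor of mTORC1 signalling, was at 12.9 and 24.6 CPM in WT and 28.8 and 28.6 CPM in KO (0.62, SE 0.31, adjusted p = 0.246, edgeR), and at 0.22 without WT replicate 1. Sgk1, a kinase that regulates ion transport and survival, was low in all libraries, at 9.48 and 7.65 CPM in WT and 11.7 and 6.86 CPM in KO. Its groups overlapped (0.11, SE 0.38, adjusted p = 0.887, edgeR), and the sign turned without WT replicate 2 (-0.05) and without KO replicate 1 (-0.33).

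For 4 of the other 7 genes both KO libraries lay above both WT libraries, as was the case for 28.8% of all genes tested, for 3 the groups overlapped, and none had both KO libraries below, as 27.6% of all genes did. Leaving out Fkbp5, whose direction was known when the set was chosen, 6 of the 7 log2 fold changes were positive, with a median of 0.62. Over all genes tested 51.2% were positive and the median was 0.02. Zbtb16 was the 1 of the 7 that passed. The 7 genes, too, were chosen with earlier results of these data known. Per length of exon the order of mean levels in WT was Tsc22d3 (22.6 CPM per kilobase), Per1 (18.1), Nr3c1 (15.1), Ddit4 (10.7), Fkbp5 (7.19), Klf9 (4.48), Sgk1 (1.75) and Zbtb16 (1.39). The WT libraries of Tsc22d3 and Per1, of Per1 and Nr3c1, of Ddit4 and Fkbp5, and of Sgk1 and Zbtb16 overlapped, so those neighbours are not ordered beyond their spread. In KO, Zbtb16 was at 8.65 and Sgk1 at 1.89 CPM per kilobase, with no overlap.

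The genes whose 4 values followed those of Fkbp5 most closely are given as a description. None was in any of the glucocorticoid lists. Those lists hold few of the genes compared, so this does not bear on whether a steroid response was present. With each gene's log2 CPM centred on its mean, the nearest of 11361 genes were Pcdhb16, Dapk1, Oasl1, Clip3 and Gt(ROSA)26Sor, at a root mean square difference of 0.03 to 0.05 over the 4 libraries. Tsc22d3 came nearest among the other 7 genes, at 0.34 and rank 1211, followed by Ddit4 at 0.45 and rank 2652. Zbtb16 was farthest, at 0.76 and rank 8809, since its difference between groups was larger.

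Other genes that glucocorticoids induce in some tissue moved in both directions, more of them up than down. Of 42 listed, 37 were tested, 7 were higher, 3 lower and 27 did not pass, with a median log2 fold change of 0.25. Of all genes tested, 3.77% were higher and 3.01% lower. Of the 37 log2 fold changes 28 were positive and 9 negative, against 51.2% positive over all genes tested. The list was written with earlier results of these data known. The metallothionein genes Mt2 and Mt1, which bind zinc and are induced by metals as well as by steroid, rose from 0.831 ± 0.0942 to 15 ± 3.97 CPM (4.16, adjusted p = 0.000491, edgeR) and from 2.13 ± 0.392 to 18.9 ± 2.0 CPM (3.15). Hif3a, a hypoxia factor subunit, was at 59.4 and 83.6 CPM in WT and 179 and 337 CPM in KO (1.85, SE 0.27, adjusted p = 0.00301, edgeR). Bcl6, a transcriptional repressor of lymphoid and myeloid cells, rose from 9.60 ± 1.05 to 34.8 ± 8.67 CPM (1.86), and Glul, glutamine synthetase, from 281 ± 36.2 to 539 ± 25.2 CPM (0.94). Mt1, Mt2, Hif3a and Bcl6 passed with each library left out. Pik3ip1 (0.97), an inhibitor of PI3 kinase, and Glul missed the threshold without WT replicate 1, and Lcn2 (0.90), a neutrophil granule protein, in 3 of 4 such fits. Neutrophil markers, 6 of 10 higher, summed to 399 to 574 CPM in WT and 853 to 1087 CPM in KO, with none under 1 CPM in every library, and their part in the Lcn2 level was not tested.

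The 3 lower genes in that list were Dusp1, Rgs2 and Il7r. Dusp1, the phosphatase through which glucocorticoids restrain MAP kinases, was at 114 and 169 CPM in WT and 59.2 and 91.8 CPM in KO (-0.91, SE 0.24, adjusted p = 0.0424, edgeR). Rgs2, a brake on G protein signalling, fell from 137 ± 13.7 to 78.9 ± 20.7 CPM (-0.79), and the interleukin 7 receptor gene Il7r from 47.7 ± 18.1 to 22.9 ± 2.48 CPM (-1.06). Of 10 markers of early B lineage cells, in which Il7r is also expressed, 9 were lower (median -2.70), against 3.01% of all genes tested. The summed level of these markers was 503 to 590 CPM in WT and 83.9 to 115 CPM in KO. None of the 10 was under 1 CPM in every library. Their part in the Il7r level was not tested. None of the 3 lower genes passed without WT replicate 2 or with upper quartile factors. Lcn2, Dusp1, Rgs2 and Il7r were named after their values were seen. Of the remaining members of the list, Tat, Pck1, Klf15, Trim63 and Fam107a, known from liver, muscle or brain, had too few reads to test.

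**Figure D4:**
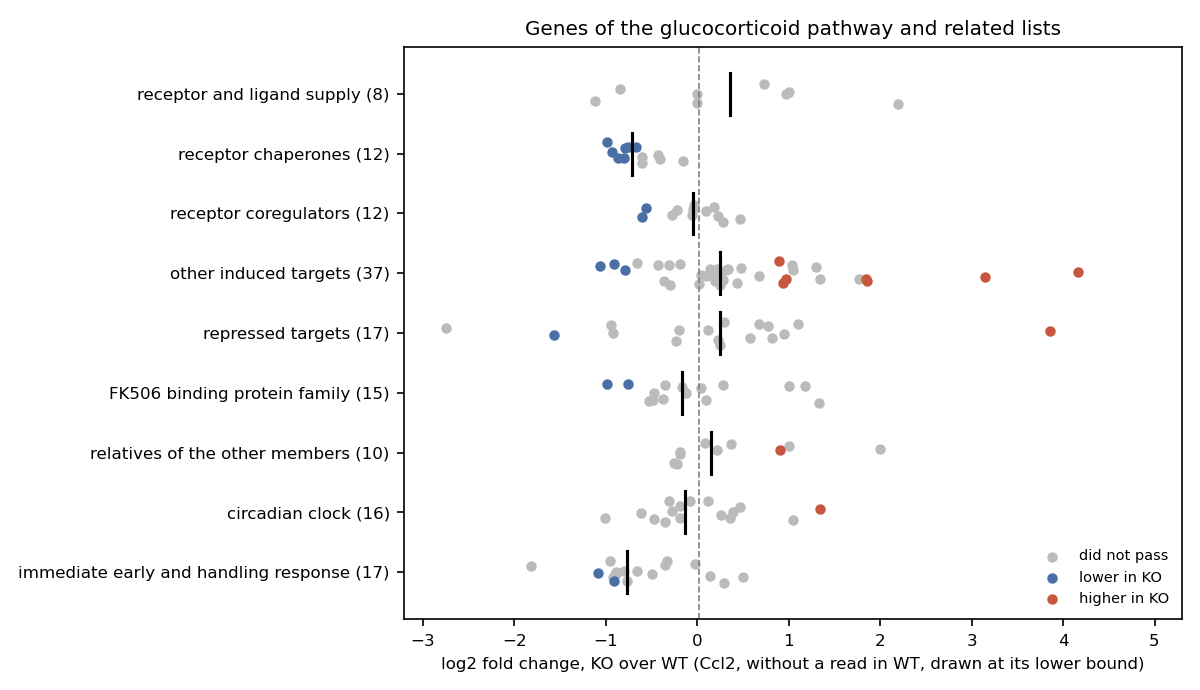
Log2 fold change, KO over WT, of each tested gene in 9 lists (number tested in brackets), with genes past the threshold in red (higher) or blue (lower), a black line at each list's median and a dashed line at the median of all genes. The chaperone and immediate early lists lie mostly below 0, and the induced targets spread to both sides, with 28 of 37 above 0.

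Dusp1 is also an immediate early gene, and that list varied between libraries of the same genotype. Of 17 tested immediate early genes, the calls were Jun (-1.09) and Dusp1, both lower, against 3.01% lower over all genes, and the median was -0.77. The number lower was 0 without WT replicate 2 or KO replicate 1, 5 without WT replicate 1 and 9 without KO replicate 2. In WT replicate 2, 16 of the 17 were higher than in WT replicate 1, and all 17 were higher in KO replicate 2 than in KO replicate 1, with median log2 differences of 0.61 and 0.98. Per1, Klf9 and Ddit4 shared the first of these differences, at 1.59, 1.38 and 0.91, and not the second, at 0.03, 0.26 and -0.01. Tsc22d3 differed by 0.62 and 0.69, and Fkbp5 by -0.18 and 0.45. The part of this variation in the levels of the 8 genes was not tested.

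Genes that glucocorticoids repress were sparse in these cells. Of 25 cytokine, adhesion and enzyme genes listed, 17 were tested, 1 was higher and 1 lower, against 3.77% and 3.01% of all genes, and the median was 0.25, also with Ccl2 set at its lower bound. Tnf fell from 9.27 ± 0.247 to 3.13 ± 0.114 CPM (-1.57, SE 0.41, adjusted p = 0.0451, edgeR), and did not pass without either WT library or with upper quartile factors (adjusted p = 0.0558). The monocyte chemokine gene Ccl2 had no read in WT and 1.18 and 2.34 CPM in KO, at least 14.5-fold higher against a floor of 3 counts per library; it did not pass with WT replicate 1, WT replicate 2 or KO replicate 2 left out. The chemokine gene Ccl3, named after its value was seen, had the same WT split as Per1, at 18.9 and 58.1 CPM in WT and 73.8 and 74.8 CPM in KO (0.95, adjusted p = 0.144, edgeR). Of 12 receptor coregulators, the deacetylase gene Hdac2 (-0.61) and the chromatin remodeller gene Smarca4 (-0.56) were lower, none was higher, and the median was -0.04; neither passed without either WT library or with upper quartile factors.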

How the data were processed

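The NuGEN Ovation Ultralow kit, 20 ng of total RNA per library and 76 cycles on a NextSeq 500 were used, per the labels' protocols. The deposited values are raw read counts per gene symbol; HTSeq 0.8.0, Picard 2.9.4, SAMtools 1.5, TopHat2 2.1.1 and build mm10 are named, without roles, per the submitters' processing notes. The sources used here do not give the annotation, strand setting or duplicate handling, so reads of overlapping antisense genes could be included; no GENCODE vM21 gene shares exon bases with the 8 genes.

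The 8 members and the gene lists were chosen with earlier results of these data known. Counts were tested with edgeR 4.0.16 (R 4.3.3): TMM factors, filterByExpr (minimum count 10, minimum total 15), quasi-likelihood test of KO against WT, Benjamini-Hochberg adjustment over 14140 genes, threshold 0.05. SE is the log2 fold change over the square root of F. CPM used TMM-scaled library sizes, and 3 counts equal 0.108 to 0.152 CPM, for counting error only. Differences between libraries of a group used log2(CPM + 0.5). Exon lengths came from GENCODE vM21 (mm10). The procedure was tested on simulated data. Named in the text were the members, up to 6 called genes per list by smallest p (the 2 smallest p where none was called), Fkbp4, Nr3c2, Per2 and Per3, and the 5 genes with a mean of at least 2 CPM nearest to Fkbp5, predicted gene models left out. A gene that this rule takes is not reported here. Alternatives were DESeq2 1.42.0, RLE and upper quartile factors, other filters (at least 50 counts in 2 libraries, or at least 1 read), a replicate block and each library left out.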

Additional observations from a re-analysis of the deposited data

How the results depend on the processing

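With 2 libraries per group, and in 1 group 1 library when another was left out (its spread then taken from the other group), precision is limited. Over all genes tested, fewer passed without either WT library and more without KO replicate 1. A call lost or gained in those fits need not be particular to the gene. Among the 7 genes other than Fkbp5 the number higher was 1, against 2 in DESeq2, 4 without the filter, 4 with the replicate block and 1 to 3 with each library left out, and none was lower in any fit. The genes added were Klf9 (DESeq2) and Klf9, Tsc22d3 and Per1 (no filter, and block). Fkbp5 ranged from 0.79 to 1.24 with a library left out. With each library left out, log2 fold changes ranged from -0.23 to 0.067 for Nr3c1, from -0.083 to 1.5 for Per1 and from -0.33 to 0.44 for Sgk1, and list medians from -0.13 to 0.43 for receptor and ligand supply, from -0.026 to 0.081 for coregulators and from -0.19 to 0.060 for clock genes, so their signs turned. With upper quartile factors Nr3c1 was at 0.014 and the coregulator median at 0.040. The cause was not tested.

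Over all genes, 533 were higher and 425 lower; DESeq2 gave 878 and 792, no filter 1056 and 987, and leaving out a library 160 to 997 and 95 to 1161. Other induced targets numbered 7 higher and 3 lower, with 4 to 7 and 0 to 4 when a library was left out and 0 lower with upper quartile factors. Repressed targets numbered 1 higher and 1 lower, with 0 to 1 and 0 to 3 when a library was left out, 2 and 2 without the filter, 0 higher with the stricter filter and 0 lower with upper quartile factors. The chaperone count of 7 lower was 4 with upper quartile factors and 0 to 10 when a library was left out.

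The replicate numbers are shared between groups, but the labels do not say that they pair samples, and the differences between replicates 1 and 2 correlated at 0.09 across 14140 genes between WT and KO. With the replicate block 1312 genes were higher and 1314 lower, and repressed targets numbered 2 and 2. The number lower rose from 2 to 9 of 17 immediate early genes (Fos, Fosb, Junb, Egr1, Ier2, Zfp36 and Nr4a1 were added), from 7 to 11 of 12 chaperones and from 2 to 4 of 15 FK506 family genes, and 1 coregulator, Ncoa1, was higher.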
